A study of Mus musculus with 59 samples.

Results

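The comparison is of the hippocampus at E18.5 (E for embryonic day) between offspring of C57BL/6 mice that had received valproic acid (VPA) in pregnancy and offspring of vehicle-treated mice. The 6 arrays were chosen by their titles alone, 3 VPA and 3 vehicle, of the 59 arrays of the study. The dams of the VPA group were dosed orally with 300 mg/kg once a day at E12.5, E13.5 and E14.5. The vehicle (MC) dams received an equal volume of 0.5% methylcellulose on the same days, so tissue was taken 4 days after the last administration in both groups. A further 3 hippocampal arrays came from offspring of dams given 300 mg/kg valpromide (VPM), the amide of VPA. Set beside them below are 3 VPA and 3 MC arrays of the E18.5 forebrain, 3 VPA and 3 MC arrays of the E14.5 telencephalon taken 3 h after the last dose, and VPA and MC arrays of adult hippocampus from mice kept without a running wheel (3 each at 12 to 13 weeks and 4 each at an age labelled P84). No allele, transgene or sorted cell population is involved: each array measured RNA of whole dissected tissue from C57BL/6 mice. The labels call the arrays biological replicates but do not say whether the offspring of a group came from different litters, so p-values measure the spread between these arrays.

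Valproic acid is an anti-epileptic drug that also inhibits histone deacetylases, enzymes that remove acetyl groups from histones. Its amide, valpromide, shares the anti-epileptic action but is a weak deacetylase inhibitor. In the embryonic hippocampus, radial glia divide along the ventricle and give rise to intermediate progenitors, which produce the pyramidal neurons of Ammon's horn and, through the migrating dentate progenitors, the granule neurons of the dentate gyrus. Cajal-Retzius cells at the surface secrete reelin, which acts on migrating neurons through the receptors Vldlr and Apoer2. Shortly before birth the dentate gyrus is still forming and gliogenesis is starting. The study as a whole, by its title, concerns adult neurogenesis in the hippocampus after prenatal VPA, and the E18.5 arrays show the state of the tissue before birth.

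The arrays reported signal intensities for 45101 probe sets, which were scaled to a common trimmed mean of 500, and 1 probe set was kept per gene. Pearson correlations among the 9 hippocampal arrays lay between 0.976 and 0.990 on the log2 scale. Zbtb20, a transcription factor of developing hippocampal pyramidal and granule neurons, had a scaled signal of 4435 ± 539 in VPA hippocampus and 5283 ± 847 in MC hippocampus, against 1758 ± 111 in VPA forebrain and 2018 ± 302 in MC forebrain (SD, n = 3 each). Prox1, a determinant of dentate granule cells, had 283 ± 53.8 in VPA hippocampus and 381 ± 121 in MC hippocampus, against 103 ± 8.95 in VPA forebrain and 131 ± 15.3 in MC forebrain. Both markers were therefore higher in the tissue labelled hippocampus, in both treatments.

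Before the results, 2 features of the arrays that run with treatment need stating. The X-inactivation transcript Xist stood at 66.7, 5993 and 9719 in VPA replicates 1 to 3, and at 56.1, 69.3 and 65.3 in the MC replicates. The Y-linked translation factor gene Eif2s3y stood at 480, 0.647 and 8.60 in the VPA arrays and at 376, 355 and 488 in the MC arrays. Thus VPA replicates 2 and 3 carried a female pattern, while VPA replicate 1 and all 3 MC arrays carried a male pattern. In the forebrain the balance was the opposite, with 1 of 3 VPA arrays and 2 of 3 MC arrays showing the female pattern. Tissue of the choroid plexus, the epithelium that lies beside the hippocampus and secretes cerebrospinal fluid, also differed between arrays. Its thyroid hormone carrier gene Ttr, named after its values were seen, stood at 20775, 21672 and 24547 in the VPA arrays, against 8604, 1287 and 26646 in the MC arrays. All 8 tested choroid plexus markers were higher in VPA hippocampus, with a median log2 difference of 1.41. However, none had an unadjusted p under 0.05, and MC replicate 3 was as high as the VPA arrays. Signals summed over all 10 measured markers, most of the sum being Ttr, ran from 23360 to 28129 in VPA and from 1831 to 31294 in MC. In the forebrain all 8 tested markers were called lower with VPA, with a median of -2.37. For VPA against MC, a list median or gene difference of 0.10 or more on the log2 scale is therefore given also with the sex pattern or the choroid plexus level as a covariate where that moved it by over 1.5 times.

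**Figure D1:**
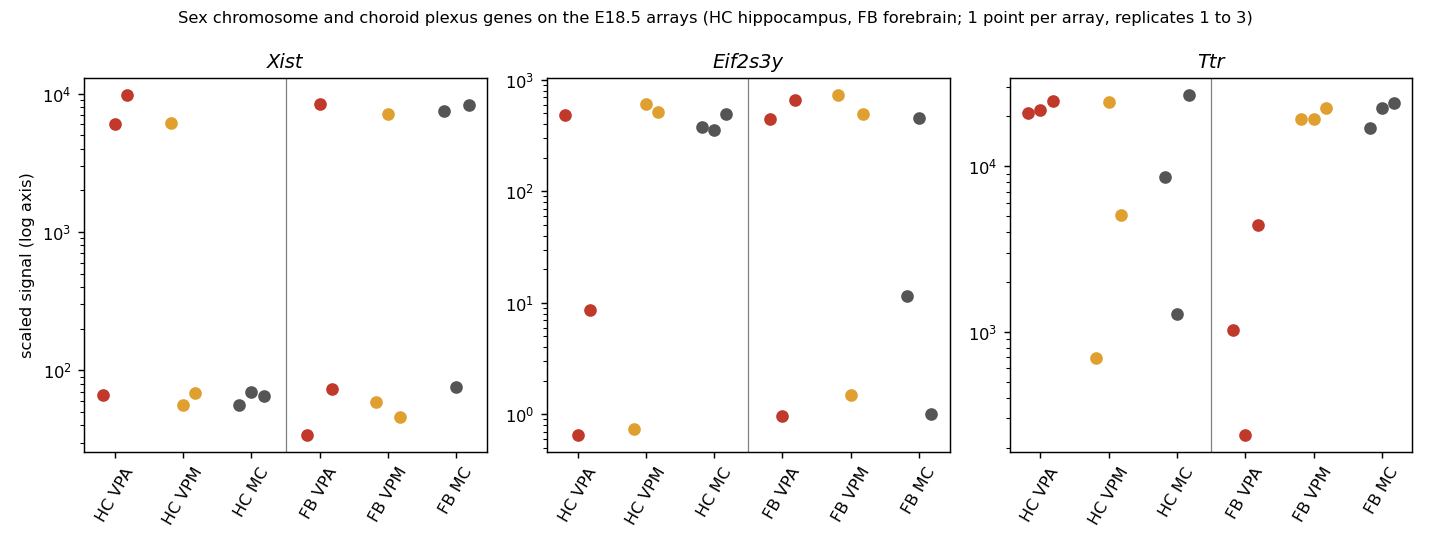
Scaled signal (log axis) of Xist, Eif2s3y and Ttr on each E18.5 array, with VPA, VPM and MC groups from left to right for the hippocampus (HC) and then the forebrain (FB); each point is 1 array. In the hippocampus VPA replicates 2 and 3 have the high Xist signal and no MC array has, and Ttr is high in all 3 VPA arrays but in only MC replicate 3 and, less so, MC replicate 1.

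No gene passed the test between VPA and MC hippocampus. With limma, 0 of 11540 genes tested (0%) had a Benjamini-Hochberg adjusted p under 0.05, and the smallest adjusted p was 0.0699. An unadjusted p under 0.05 was reached by 1507 genes (13.1%), against 577 that a uniform distribution of p would give: 719 were higher (6.23%) and 788 lower (6.83%) in the VPA arrays. That count was 780 with the sex pattern as a covariate, 624 on the male-pattern arrays alone and 1002 without MC replicate 1. The VPA and MC arrays did not overlap for 864 genes that were higher with VPA (7.49%) and for 1190 that were lower (10.3%). The median log2 difference over all genes was -0.01 with an SD of 0.21, and 231 genes differed by 1.5-fold or more and 38 by 2-fold or more. A typical gene's 95% interval extended 0.21 to each side on the log2 scale, without adjustment for the number of genes tested. The adjusted test with 3 arrays a group was less sensitive than that, as none of the 38 genes that differed by 2-fold or more passed it. Because no gene passed, the differences below are values with their spread and none is called a change. List counts at an unadjusted p under 0.05 are to be read beside the shares over all genes, 6.23% higher and 6.83% lower. RNA came from whole tissue, so fewer cells of a type and less RNA per cell cannot be told apart.

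The 12 genes with the smallest p are shown first. Among them, 9 stood higher and 3 lower in the VPA arrays, and their adjusted p lay between 0.0699 and 0.115. No VPA array overlapped an MC array for any of the 12, against 17.8% of all genes without overlap in either direction. The 12 were picked by p on these same arrays, so the lack of overlap largely follows from that choice. The same holds for the leading list members below, also picked by p. Tfrc, the transferrin receptor through which cells take up iron, had signals of 1009, 1165 and 1208 in the VPA arrays, against 739, 752 and 783 in the MC arrays. The log2 difference was 0.57 ± 0.08 (SE, adjusted p = 0.0699), and every VPA array lay above every MC array. Vldlr, a receptor for reelin, stood at 1749, 1783 and 1687 in VPA hippocampus, against 1277, 1249 and 1280 in MC hippocampus, a log2 difference of 0.46 ± 0.06 (SE, adjusted p = 0.0699). The MC values of Vldlr spanned a narrow range and the VPA values sat well clear of it. Its other 4 probe sets were also higher in VPA, by 0.08 to 0.38. Atp1b1, the beta subunit of the sodium-potassium pump, had 7492, 8380 and 8120 in the VPA arrays and 5828, 6134 and 6403 in the MC arrays, a difference of 0.39 ± 0.06 (SE, adjusted p = 0.0699). Ddit4l, a relative of the mTOR inhibitor Redd1, had the widest gap of the 12, at 378, 461 and 384 in VPA and 188, 229 and 244 in MC, which is 0.89 ± 0.14 on the log2 scale (SE, adjusted p = 0.0839) or 1.85-fold.

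Mt2, a metallothionein that binds zinc and copper, stood at 3366, 3668 and 3325 in the VPA arrays, against 2441, 2349 and 2515 in the MC arrays, a log2 difference of 0.50 ± 0.07 (SE, adjusted p = 0.0699). Its neighbour Mt1, of the same function, stood at 2295, 2541 and 2126 in VPA and 1838, 1680 and 2041 in MC, a difference of 0.33 ± 0.09 (SE, adjusted p = 0.213). For both metallothioneins the 2 groups did not overlap. Both genes are known to be induced through metal response elements, short promoter motifs, and their promoters are printed because the pair stood higher together. The sequences are the 250 bases before the annotated start in RefSeq (GRCm38.p6), written 5′ to 3′ on the + strand, chr8:94172368-94172617 for Mt2 and chr8:94178839-94179088 for Mt1. Capitals mark each match to the core of the metal response element, TGCACNC or TGCGCNC, on either strand.
Mt2: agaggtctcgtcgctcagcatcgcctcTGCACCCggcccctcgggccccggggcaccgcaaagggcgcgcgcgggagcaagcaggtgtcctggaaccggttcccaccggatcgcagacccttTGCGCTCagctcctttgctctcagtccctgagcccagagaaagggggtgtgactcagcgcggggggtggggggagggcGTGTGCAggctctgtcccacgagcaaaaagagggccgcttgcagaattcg
Mt1: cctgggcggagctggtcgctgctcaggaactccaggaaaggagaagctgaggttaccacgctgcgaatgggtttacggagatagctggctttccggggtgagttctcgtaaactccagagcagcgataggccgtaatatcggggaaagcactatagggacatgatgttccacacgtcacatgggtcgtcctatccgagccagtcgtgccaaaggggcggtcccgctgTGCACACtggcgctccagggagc
The Mt2 window held 3 matches, 2 on the strand shown and 1 on the other, and the Mt1 window held 1. Bases outside these windows, including those after the annotated start, were not searched, so the counts do not describe the whole promoters. Of 32851 RefSeq promoter windows of the same length, 21.4% held at least 1 match and 5.17% at least 2. The motif is thus common, and a match describes the letters only.

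The remaining genes of the 12 were Clec2l, a C-type lectin-like gene, at 0.55 ± 0.08 (SE), Rasgrf2, an activator of Ras in neurons, at 0.55 ± 0.09, Lhfpl3, a gene of oligodendrocyte precursors, at 0.69 ± 0.12, and the chloride transporter gene Clcn5 at 0.61 ± 0.11, all higher in VPA. Lower in VPA were Nuak1, a kinase related to AMPK that is known for axon branching, at -0.34 ± 0.06, the cytoskeletal septin gene Septin9 at -0.37 ± 0.06, and Atxn7l3b at -0.29 ± 0.05. Clcn5 rests on 1 probe set: its other 2 probe sets differed by -0.08 and -0.12. For 8 of the 12 genes that had further probe sets, 16 of 18 such probe sets differed in the same direction as the one used. With the sex pattern as a covariate the 12 log2 differences kept their sign, with Tfrc at 0.50, Vldlr at 0.40, Atp1b1 at 0.33, Mt2 at 0.56, Ddit4l at 0.89 and Nuak1 at -0.29.

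**Figure D2:**
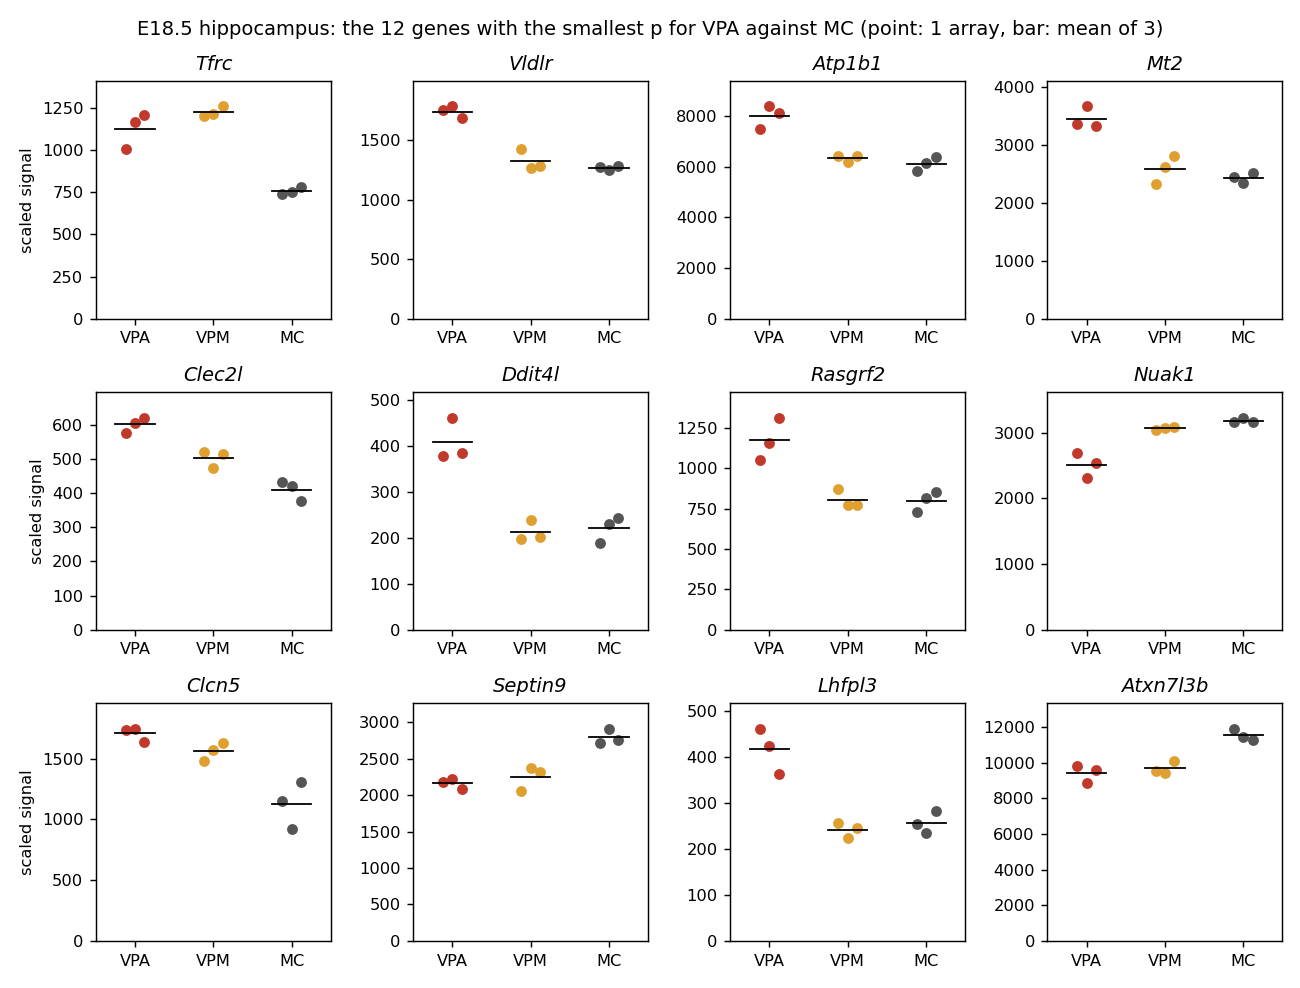
Scaled signal in the VPA, VPM and MC hippocampus at E18.5 for the 12 genes with the smallest p in VPA against MC; each point is 1 array, the bar is the mean of 3, and each axis starts at 0. The VPA and MC points do not overlap in any panel; in the Tfrc and Clcn5 panels the VPM points lie near the VPA points, and in the Vldlr, Atp1b1, Ddit4l and Lhfpl3 panels near the MC points.

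Genes of intermediate progenitors were among the lowest lists in VPA hippocampus. Of 13 tested members, 10 were lower and 3 higher, and 7 had an unadjusted p under 0.05, all in the lower direction (against 6.83% of all genes). Their median log2 difference was -0.37, against -0.01 over all genes. Neurog2, a proneural factor of excitatory progenitors, stood at 1110, 784 and 681 in VPA and at 1479, 1319 and 1125 in MC (log2 -0.63 ± 0.16, SE). Tfap2c, a factor of basal progenitors, had 384, 374 and 285 in VPA, against 634, 473 and 472 in MC (-0.60 ± 0.14). Insm1, a zinc finger factor needed for basal progenitors to form, had 2073, 1651 and 1796 in VPA, against 2512, 2264 and 2313 in MC (-0.37 ± 0.09). For these 3 genes the groups did not overlap, and VPA replicate 1 was the VPA array closest to MC for each of them, for Tfap2c by a small margin. Eomes, the defining factor of intermediate progenitors (named after its values were seen), stood at 1462, 810 and 993 in VPA and 1752, 1545 and 1400 in MC, so that VPA replicate 1 lay within the MC range. With the sex pattern as a covariate the difference was -0.37 for Neurog2, -0.23 for Insm1 and -0.26 for Eomes, against -0.56 for Eomes without it.

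Dividing cells gave a similar picture at a smaller size. All 20 tested mitosis genes were lower in VPA, 6 of them with an unadjusted p under 0.05, and the median difference was -0.24. Top2a, the topoisomerase of dividing cells, stood at 1284, 1123 and 1101 in VPA, against 1382, 1514 and 1342 in MC (-0.27 ± 0.07, SE). Cdk1, the kinase that starts mitosis, had 1003, 908 and 850 in VPA, against 1189, 1129 and 1130 in MC (-0.32 ± 0.10). Of 19 S phase genes, 17 were lower and 3 of those had an unadjusted p under 0.05, with a median of -0.14. Mcm2, a subunit of the replicative helicase, differed by -0.34 ± 0.11. Mean mitosis log2 levels relative to the MC average were -0.04, -0.33 and -0.27 in VPA replicates 1 to 3, and 0.07, 0.00 and -0.08 in the MC arrays. VPA replicate 1, the male-pattern array, thus lay within the MC range. With the sex pattern as a covariate the median was -0.06 for mitosis, -0.05 for S phase and -0.20 for intermediate progenitors, and Cdk1 differed by -0.19. On the 4 male-pattern VPA and MC arrays the median was -0.04 for mitosis and -0.09 for intermediate progenitors. All MC arrays were of the male pattern, so beyond these values sex and treatment cannot be told apart. The male-pattern medians rest on 1 VPA array, replicate 1. That array also had the highest thalamus and striatum marker levels of the VPA and MC arrays. Its sex pattern and its content of neighbouring tissue cannot be told apart either.

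Radial glia and stem cell genes were lower for 20 of 23 tested members, 7 of them with an unadjusted p under 0.05 and none higher at that level, with a median of -0.15. Id1, an inhibitor of neuronal differentiation that marks stem cells, stood at 783, 886 and 854 in VPA, against 1080, 1106 and 1189 in MC (-0.42 ± 0.08, SE, adjusted p = 0.115). Vim, the intermediate filament of radial glia, stood at 9596, 10128 and 9436 in VPA, against 13746, 12121 and 11862 in MC (-0.37 ± 0.07, adjusted p = 0.115). Neither gene's groups overlapped. Nes, another filament of neural progenitors, differed by -0.30 ± 0.08 and the growth factor receptor gene Fgfr2 by -0.31 ± 0.08. The radial glia median was -0.06 with the sex pattern as a covariate, with Nes at -0.19 and Fgfr2 at -0.21, while Id1 stayed at -0.42 and Vim at -0.33.

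Among markers of hippocampal and dentate identity, 16 of 20 tested members were lower and 4 higher, with a median of -0.18 that was -0.20 with the sex pattern as a covariate. An unadjusted p under 0.05 was reached by 7 lower and 3 higher members. Neurod1, a factor that granule neurons need to differentiate, stood at 3153, 3542 and 2581 in VPA and at 5289, 3903 and 3815 in MC (-0.48 ± 0.13, SE). Emx2, a patterning factor of the hippocampal primordium, had 718, 724 and 566 in VPA, against 1074, 888 and 798 in MC (-0.46 ± 0.12). The VPA and MC arrays did not overlap for either gene. Lef1, the Wnt effector without which the dentate gyrus does not form, had 251, 282 and 191 in VPA and 380, 306 and 336 in MC (-0.51 ± 0.15). Prox1 and Zbtb20, named after their values were seen, differed by -0.40 and -0.25, with overlapping groups. Pou3f1, a POU factor of pyramidal neurons, ran the other way at 1920, 2074 and 2438 in VPA, against 947, 1851 and 1406 in MC (0.66 ± 0.19).

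Signalling genes of the progenitor zone were mostly on the lower side. Of 20 Wnt pathway members 17 were lower, 5 of them and 1 higher one with an unadjusted p under 0.05, and the median was -0.15 (-0.10 with the sex pattern as a covariate). Fzd7, a Wnt receptor, differed by -0.48 ± 0.13 (SE). Of 16 Notch pathway members 13 were lower, 3 of them with an unadjusted p under 0.05, and the median was -0.10. The receptor gene Notch1 differed by -0.36 ± 0.11 and its ligand gene Jag1 by -0.32 ± 0.10.

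The reelin pathway held differences in both directions. Reln, which encodes the reelin that Cajal-Retzius cells release, stood at 8016, 8510 and 8626 in VPA, against 11749, 9764 and 10112 in MC (-0.33 ± 0.07, SE, adjusted p = 0.165), so that every VPA array was below every MC array. Of its 2 receptors, Vldlr was higher as given above, while Lrp8, which encodes Apoer2 (named after its values were seen), differed by -0.13. Dab1, the adaptor that both receptors act through, differed by 0.24. Cxcr4, the chemokine receptor that guides Cajal-Retzius cells and dentate progenitors, stood at 2089, 2168 and 1673 in VPA, against 3305, 2511 and 2448 in MC (-0.47). All 7 tested Cajal-Retzius markers were lower, with a median of -0.22, though Reln alone had an unadjusted p under 0.05. The Reln difference was -0.34 with the sex pattern as a covariate, and the Cajal-Retzius median was -0.14 with the choroid plexus level as a covariate.

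Immature neuron genes were lower for 18 of 20 tested members, 5 of them with an unadjusted p under 0.05, with a median of -0.13. Nhlh1, a basic helix-loop-helix factor of newborn neurons, stood at 120, 138 and 85.0 in VPA, against 289, 164 and 177 in MC (-0.85 ± 0.26, SE). Bcl11b, a factor of CA1 and dentate neurons, had 5492, 5963 and 5465 in VPA and 6850, 6363 and 6430 in MC (-0.22 ± 0.06). Fezf2, a factor of deep-layer projection neurons and not a member of that list, had 1579, 1720 and 1850 in VPA and 2512, 2142 and 2027 in MC (-0.37 ± 0.08). Of 14 tested neocortical layer markers, 9 were higher and 5 lower, with a median of 0.09. An unadjusted p under 0.05 was reached by 1 higher and 2 lower ones.

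Genes of ion channels stood mostly higher in VPA. Of 21 ion channel and GABA receptor genes, 16 were higher and 5 lower, 6 had an unadjusted p under 0.05 and were higher, and the median was 0.13 (0.083 with the sex pattern as a covariate). Scn2a, a sodium channel of axon initial segments, stood at 2481, 2590 and 2828 in VPA, against 1898, 2004 and 2059 in MC (0.40 ± 0.08, SE, adjusted p = 0.115). Kcnd2, a potassium channel of dendrites, had 2325, 2652 and 2383 in VPA and 1899, 1843 and 1991 in MC (0.36 ± 0.07, adjusted p = 0.137). In both cases the lowest VPA array exceeded the highest MC array. Slc12a5, the chloride exporter that makes GABA inhibitory, had 2390, 2020 and 1825 in VPA and 1594, 1536 and 1834 in MC, which overlap by 1 array (0.32 ± 0.11). Of 16 glutamatergic synapse genes 12 were higher, 3 with an unadjusted p under 0.05, with a median of 0.11 (0.062 with the sex pattern as a covariate). Over all genes 6.23% were higher at that level. Of 16 genes of synaptic vesicles and release 9 were higher and 7 lower, none with an unadjusted p under 0.05, with a median of 0.04. Camk2a, the calcium-dependent kinase of synapses, stood at 1646, 1890 and 1610 in VPA, against 1116, 1106 and 1421 in MC (0.51 ± 0.12).

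Glial genes were also higher. Of 11 astrocyte genes 8 were higher and 3 lower, and an unadjusted p under 0.05 was reached by 5 higher members and 1 lower one, with a median of 0.31. Aqp4, the water channel of astrocyte endfeet, stood at 314, 495 and 435 in VPA, against 171, 195 and 266 in MC (0.97 ± 0.21, SE, adjusted p = 0.159). Glul, glutamine synthetase, had 4109, 4344 and 4107 in VPA and 2759, 3377 and 3537 in MC (0.38 ± 0.08), and Apoe, the main brain lipid carrier, had 4079, 4282 and 4090 in VPA and 3085, 2971 and 3796 in MC (0.35 ± 0.08). For all 3 the groups did not overlap. The lower astrocyte gene was Gja1, the gap junction protein connexin 43 (named after its values were seen), at -0.34. Gfap, named after its values were seen, had overlapping groups (0.25 ± 0.13). Of 10 genes of the oligodendrocyte lineage 8 were higher, 5 of them with an unadjusted p under 0.05, with a median of 0.34. Olig1, a factor that specifies the lineage, stood at 3557, 3417 and 3902 in VPA, against 2182, 2952 and 3042 in MC (0.42 ± 0.11), and the myelin gene Mbp at 130, 150 and 171 in VPA, against 54.4, 77.2 and 121 in MC (0.91 ± 0.28). For Mbp, all VPA arrays but only replicate 3 of the MC arrays reached 100, the signal that testing required on 3 or more arrays. With the sex pattern as a covariate the medians were 0.25 for astrocytes and 0.28 for the oligodendrocyte lineage, and 0.19 for meninges markers. Meninges markers moved with these lists, with 12 of 13 higher, 3 with an unadjusted p under 0.05 and a median of 0.32, their summed signal ran from 8988 to 12570 in VPA and from 6710 to 11861 in MC, and their part in the glial differences was not tested.

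**Figure D3:**
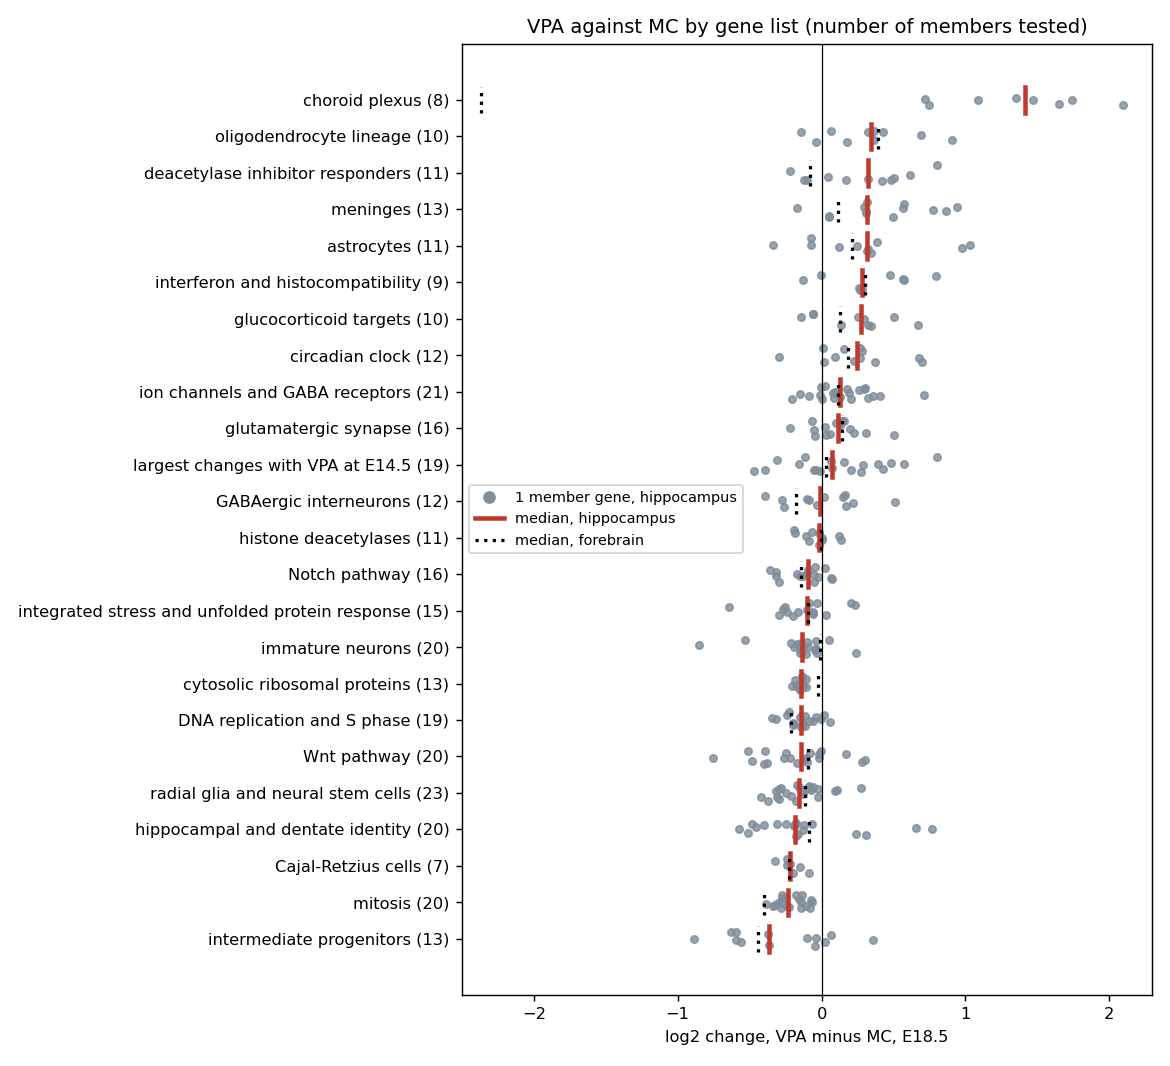
Log2 difference between VPA and MC in the E18.5 hippocampus for the members of 24 gene lists, with the number of members tested in brackets; grey points are genes, red bars the hippocampal medians and dotted bars the medians of the same lists in the forebrain. Progenitor and mitosis lists lie below 0 in both regions, glial lists lie above 0 in both, and the choroid plexus list lies at 1.41 in the hippocampus and at -2.37 in the forebrain.

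Genes that deacetylase inhibitors are known to induce stood higher for 8 of 11 tested members, 5 with an unadjusted p under 0.05, with a median of 0.33 that was also 0.33 with the sex pattern as a covariate. Besides the metallothioneins these included the inducible heat shock gene Hspa1a, at 115, 188 and 116 in VPA, against 67.0, 75.5 and 93.0 in MC (0.80 ± 0.23, SE), and the linker histone gene H1f2, at 1567, 1243 and 1366 in VPA, against 848, 1152 and 1143 in MC (0.42 ± 0.12). The groups did not overlap for either. Cdkn1a, the cell cycle inhibitor p21 and a classical target of such inhibitors (named after its values were seen), differed by 0.04 ± 0.15 with overlapping groups. The histone deacetylase genes themselves stood on both sides, with 4 of 11 higher and 7 lower, a median of -0.02 and no unadjusted p under 0.05. In the forebrain the responder median was -0.08.

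Interferon and histocompatibility genes were higher for 7 of 9 tested members, 4 with an unadjusted p under 0.05, and the median was 0.28. Bst2, the antiviral tetherin, stood at 158, 180 and 188 in VPA, against 92.9, 97.4 and 113 in MC (0.79 ± 0.16, SE). Irf9, a subunit of the interferon-activated factor, had 235, 245 and 288 in VPA and 163, 171 and 182 in MC (0.57 ± 0.12). B2m, the light chain of class I molecules, had 2363, 2541 and 2568 in VPA and 1984, 2159 and 2109 in MC (0.26 ± 0.06). The VPA and MC arrays did not overlap for these 3 genes. Another 7 listed members, among them Ifit1 and Irf7, were too low to test. Glucocorticoid targets were higher for 7 of 10 members, 5 of them and 1 lower one with an unadjusted p under 0.05 and a median of 0.27, led besides Mt2 by Klf9, a Kruppel-like factor, at 600, 921 and 863 in VPA and 441, 449 and 596 in MC (0.67 ± 0.17). The glucocorticoid target median was 0.16 and the Klf9 difference 0.37 with the sex pattern as a covariate. Clock genes were higher for 11 of 12, 3 with an unadjusted p under 0.05 and a median of 0.24. Egr1, an activity-regulated factor, stood at 537, 588 and 699 in VPA, against 326, 432 and 441 in MC (0.61 ± 0.13), though the immediate early list as a whole had 3 members higher and 8 lower.

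All 13 tested ribosomal protein genes were lower in VPA by a small amount, with a median of -0.14, 7 unadjusted p under 0.05 and 11 without overlap between groups (10.3% of all genes were lower without overlap). Rpsa, a protein of the small subunit, stood at 14457, 14907 and 16148 in VPA, against 17242, 17664 and 16730 in MC. Among 15 genes of the unfolded protein and integrated stress responses 12 were lower, 6 of them with an unadjusted p under 0.05 beside 2 higher, and the median was -0.10. Sdf2l1, an endoplasmic reticulum chaperone cofactor, had 272, 288 and 245 in VPA and 509, 395 and 363 in MC (-0.64 ± 0.13, SE), and Hspa5, the main chaperone of that compartment, had 7947, 7791 and 8390 in VPA and 8804, 9200 and 9713 in MC (-0.20 ± 0.05). Alas2, the heme synthesis enzyme of red cells, stood at 209, 212 and 281 in VPA, against 331, 471 and 403 in MC (-0.78 ± 0.15).

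Markers of neighbouring tissue stood apart in VPA replicate 1. Of 7 tested thalamus markers 4 were higher in VPA, and their mean log2 level relative to the MC average was 0.58, 0.12 and 0.06 in VPA replicates 1 to 3, against -0.01, -0.08 and 0.09 in the MC arrays. Striatum markers were higher for 8 of 8, at 0.57, 0.05 and 0.25 in VPA and -0.29, 0.26 and 0.03 in MC. Zic1, a factor of the septum and thalamus, stood at 5414, 2286 and 2527 in VPA replicates 1 to 3, against 1714, 1988 and 1971 in MC. Its relative Zic4 stood at 676, 134 and 275 in VPA and at 109, 95.7 and 142 in MC. Gad1, which makes GABA, stood at 3708, 2630 and 2138 in VPA and at 1938, 1690 and 2216 in MC. The GABAergic interneuron list that holds Gad1 stood on both sides, with 6 of 12 tested members higher, 6 lower and a median of -0.01. Gad1 alone of that list had an unadjusted p under 0.05. For Zic1, Zic4 and Gad1, VPA replicate 1 was the highest of the 6 arrays. With the sex pattern as a covariate Zic1 differed by 1.25 and Zic4 by 2.28, against 0.74 and 1.36 without it. Without VPA replicate 1 the list medians were -0.46 for intermediate progenitors, -0.30 for mitosis, 0.33 for astrocytes and 0.39 for the oligodendrocyte lineage, each farther from 0 than with it. This leaves 2 female-pattern VPA arrays and 3 male-pattern MC arrays, so in these values sex and treatment cannot be told apart.

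The forebrain of the same treatment groups, on separate arrays, had 248 of 11507 genes called (2.16%), 126 higher and 122 lower with VPA. Of the 125 higher ones also tested in the hippocampus, 110 (88.0%) were higher there as well. Among the 125, 50 (40.0%) were higher with an unadjusted p under 0.05. The median log2 difference of the 125 was 0.19 in the hippocampus and 0.35 in the forebrain. Over all genes tested in both regions, 48.0% were higher in VPA hippocampus and 6.22% were higher with an unadjusted p under 0.05. Of the 120 lower ones, 91 (75.8%) were lower in the hippocampus. Among the 120, 42 (35.0%) were lower with an unadjusted p under 0.05. The median of the 120 was -0.14 in the hippocampus and -0.41 in the forebrain. Over all genes the shares were 52.0% and 6.83%. The lower ones included 9 of the 20 mitosis genes and 6 of 12 tested intermediate progenitor genes, Eomes (-0.85, adjusted p = 0.00263), Neurog2 (-0.93, adjusted p = 0.00873) and Insm1 (-0.47, adjusted p = 0.0192) among them. The higher ones included Tfrc (0.25, adjusted p = 0.0328), Atp1b1 (0.36, adjusted p = 0.0136), Rasgrf2 (0.45, adjusted p = 0.0213), Aqp4 (0.73, adjusted p = 0.0176), Olig1 (0.45, adjusted p = 0.00497), Klf9 (0.66, adjusted p = 0.00497), Egr1 (0.52, adjusted p = 0.0109) and Scn2a (0.23, adjusted p = 0.0324). The female pattern was the more frequent one among VPA arrays in the hippocampus and among MC arrays in the forebrain. With the sex pattern as a covariate in the hippocampus, 93 of the 125 were higher there (median 0.12) and 69 of the 120 lower (median -0.05). Whether arrays of both regions came from the same offspring is not given in the labels, and 3 of 6 same-numbered pairs differed in sex pattern.

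**Figure D4:**
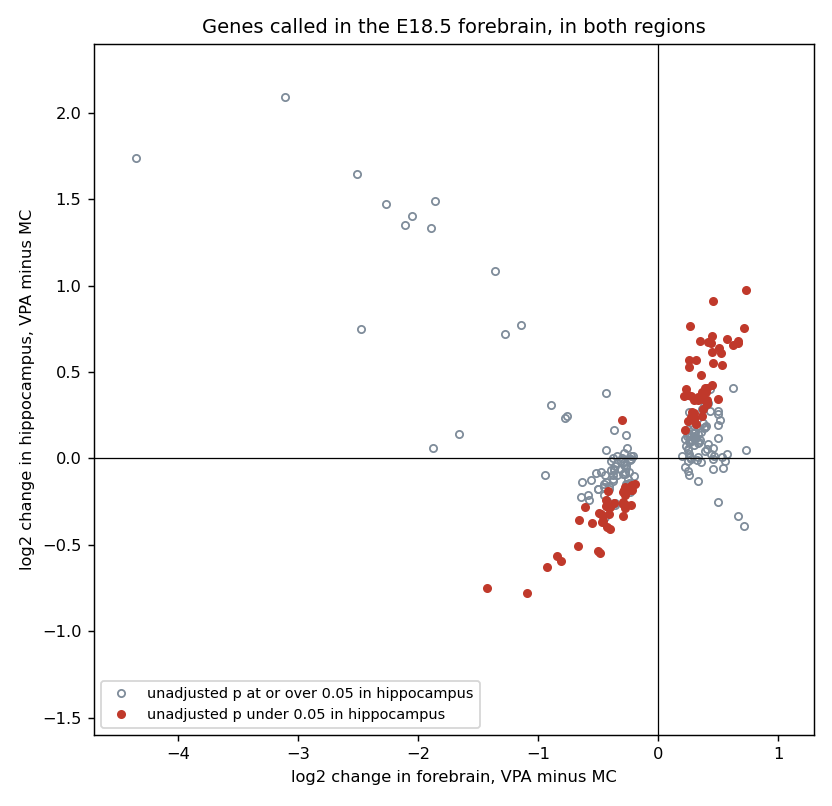
Log2 difference between VPA and MC in the forebrain (horizontal) and hippocampus (vertical) at E18.5 for the genes called in the forebrain; filled points had an unadjusted p under 0.05 in the hippocampus. Of 245 genes, 201 lie at the lower left or the upper right, 39 have the larger difference in the hippocampus, and choroid plexus genes such as Ttr lie at the upper left.

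The difference between the regional effects was itself tested, and 0 of 11863 genes (0%) passed with limma, although 1093 had an unadjusted p under 0.05. The smallest adjusted p was 0.139 for Ddit4l, whose signals were 141, 179 and 169 in VPA forebrain and 183, 192 and 186 in MC forebrain, so that the VPA arrays stood above MC in the hippocampus and below MC in the forebrain (difference of effects 1.09, 95% interval 0.71 to 1.48). Clcn5, Ppip5k2, an inositol pyrophosphate kinase, and Pbx3, a homeobox cofactor, followed with differences of 1.00, 0.53 and 1.00. Vldlr differed by 0.06 in the forebrain, against 0.46 in the hippocampus.

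Valpromide, given at the same dose and on the same days, allowed 1 pair of related compounds to be compared. Of the VPM arrays, replicate 1 carried the female pattern and replicates 2 and 3 the male pattern. Ttr stood at 693, 24364 and 5069 in VPM replicates 1 to 3. No covariate was fitted in the VPM contrasts, so compound, sex pattern and choroid plexus level cannot be told apart there. VPA against VPM had 0 of 11540 genes called (0%) with limma, with 1717 at an unadjusted p under 0.05 and a smallest adjusted p of 0.0728. Ddit4l stood at 378, 461 and 384 after VPA and 198, 239 and 201 after VPM, a log2 difference of 0.94 (95% interval 0.63 to 1.24). Lhfpl3 differed by 0.79 (0.52 to 1.05), Scg2, a secretory granule protein gene, by 0.84 (0.57 to 1.11), Apoe by 0.55 (0.37 to 0.72), Vldlr by 0.39 (0.26 to 0.53), Mt2 by 0.42 (0.26 to 0.58) and Atp1b1 by 0.33 (0.21 to 0.45), each with an adjusted p of 0.0728. Tfrc differed by -0.13 (95% interval -0.29 to 0.04), Clcn5 by 0.13 (-0.10 to 0.36), Septin9 by -0.06 (-0.20 to 0.09) and Atxn7l3b by -0.04 (-0.16 to 0.07), so for these 4 genes a difference between the compounds was not resolved.

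The same MC arrays served as controls for both compounds, and VPM against MC had 1 gene called of 11540 (0.00867%). That gene was Tfrc, at 1204, 1216 and 1260 after VPM, against 739, 752 and 783 in MC (log2 0.69, adjusted p = 0.0167). Side by side, the list medians after VPA and after VPM were -0.37 and 0.03 for intermediate progenitors, -0.24 and 0.05 for mitosis, 0.31 and -0.20 for astrocytes, 0.34 and -0.22 for the oligodendrocyte lineage, 0.33 and -0.17 for deacetylase inhibitor responders, and -0.18 and -0.20 for hippocampal and dentate identity. Id1 differed from MC by -0.42 after VPA and -0.57 after VPM, and Reln by -0.33 and -0.31. With the sex pattern as a covariate the medians after VPA were -0.20 for intermediate progenitors and -0.06 for mitosis. The values after VPM were not fitted with a covariate.

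In the E14.5 telencephalon, 3 h after the last dose, 5954 of 11068 genes (53.8%) were called. The test of the E18.5 hippocampal effect minus the E14.5 effect called 4411 of 11822 genes (37.3%), 2138 with a more positive and 2273 with a more negative effect at E18.5. Tissue, age and time since the last dose differ together in this test and cannot be told apart. Kmt5b, a histone H4 lysine methyltransferase, had the smallest p: it stood at 1942, 1890 and 1943 in VPA and 1954, 1919 and 2058 in MC hippocampus at E18.5 (log2 -0.04), against a fall by 2.27 with VPA at E14.5. Epc2, a subunit of an acetyltransferase complex, differed by 0.08 at E18.5 and -1.63 at E14.5, the nuclear export factor gene Mcm3ap by -0.08 and -1.90, and the zinc finger gene Zfp532 by -0.03 and -1.30. Tmem159, a lipid droplet protein gene, lay on opposite sides of 0 at the 2 ages, with -0.47 at E18.5 and 2.46 at E14.5. Of genes that were called and changed at least 2-fold at E14.5, 223 of 342 that had risen (65.2%) were higher in VPA hippocampus at E18.5, with a median of 0.06 against 1.23 at E14.5, and 46.7% of all genes were higher. Of 300 that had fallen, 158 (52.7%) were lower at E18.5, with a median of -0.01 at E18.5 and -1.23 at E14.5, and 53.3% of all genes were lower. With the sex pattern as a covariate at E18.5 these counts were 205 of the 342 and 139 of the 300. Klf9 (0.67 at E18.5 and 2.92 at E14.5), Hspa1a (0.80 and 2.91), H1f2 (0.42 and 2.15) and Rasd2 (0.57 and 2.59), a small G protein gene, stood higher at both ages, each significantly less so at E18.5 (adjusted p of the difference under 0.05). Neurog2 (-0.63 and -0.83) and Eomes (-0.56 and -0.92) stood lower at both, and their difference between ages did not pass the test.

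**Figure D5:**
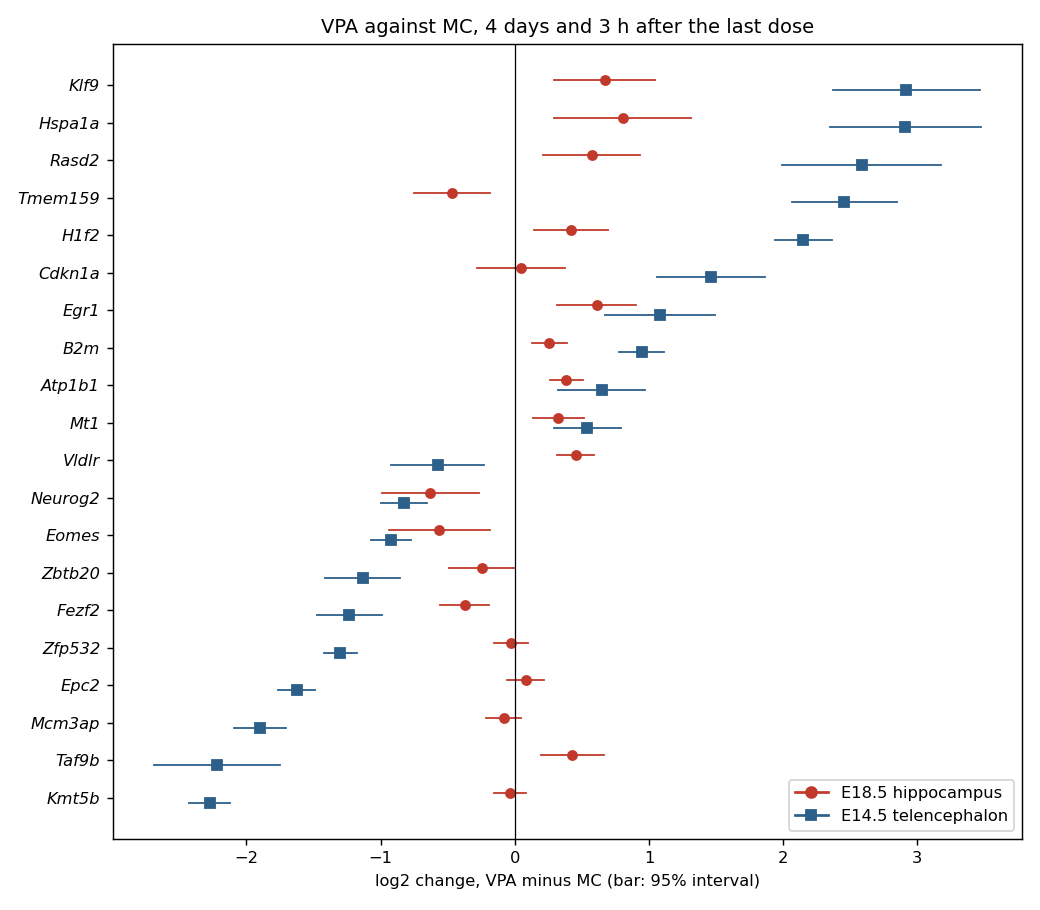
Log2 difference between VPA and MC with its 95% interval for 20 genes in the E18.5 hippocampus (red circles) and the E14.5 telencephalon (blue squares), ordered by the E14.5 value. Kmt5b, Mcm3ap, Epc2 and Zfp532 lie near 0 at E18.5 and below -1 at E14.5, while Klf9, Hspa1a and Rasd2 lie above 0 at both ages with the smaller value at E18.5.

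In older offspring no gene was called in the hippocampus: 0 of 13466 (0%) in adults aged 12 to 13 weeks and 0 of 13036 (0%) at P84, with 1478 and 645 genes at an unadjusted p under 0.05 in limma. Of the 12 genes above, Mt2 differed by 0.52 in adults and 0.14 at P84, Tfrc by 0.10 and -0.05, Vldlr by 0.04 and -0.12, Ddit4l by -0.36 and -0.06, and Atp1b1 by 0.13 and 0.11. None passed the test at either age, with a smallest adjusted p of 0.252 in adults.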

How the data were processed

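RNA was hybridised to Affymetrix Mouse 430 2.0 arrays. The values the authors deposited are linear signal intensity values, 1 per probe set; GCOS is the tool given in the submitters' processing notes, while the algorithm and any scaling by the authors are not given in these sources. As deposited, the arrays stood at different levels, with 2% trimmed means of 207 to 323 over the 9 hippocampal arrays. They were brought to a common 2% trimmed mean of 500, a floor of 32 was set, and values were turned to log2. At the floor lay 29.6% to 33.3% of probe sets. Of 45101 probe sets, 34958 carried 1 gene symbol, 932 several and 9211 none, and symbols were updated through Entrez numbers that matched RefSeq (GRCm38.p6). For each of 18194 genes the probe set with the highest mean signal over all 59 arrays was kept.

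Testing was limited to genes with a scaled signal of 100 or more on 3 or more arrays (4 at P84). Groups were fitted in limma 3.58.1 (R 4.3.3) with an intensity trend, 1 term per group and no covariate, with the VPA, MC and VPM arrays of a tissue and age sharing 1 estimate of spread; p-values were adjusted by Benjamini-Hochberg over all genes tested, with a threshold of 0.05, and a gene under it is termed called. The fit was tested on simulated data. None of 36 pairs of hippocampal arrays was identical. The number of arrays limits the precision.

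Gene lists (44, of which 632 of 695 distinct members were measured and 573 tested) were described by counts and medians, with no test. The comparison and the lists were chosen with earlier results of these data known. Genes were named by rule: those passing the test (none), the 12 with the smallest p, the leading members of each list by adjusted p (at most 4), and the 4 with the smallest p in the region, compound and age contrasts. Predicted genes and clones were left unnamed by that rule, and genes outside it are marked as named after their values were seen. Alternatives were quantile normalization, values as deposited, log2(signal + 32), no filter or a filter at 200, other probe set rules, no trend, the VPA and MC arrays only, a replicate block, the sex pattern as a covariate and leaving out each array. The male-pattern arrays alone and the choroid plexus level as a covariate were added after seeing the data. Promoters came from RefSeq, and figures were drawn with matplotlib 3.10.9.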

Additional observations from a re-analysis of the deposited data

Results flagged for a closer look

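In the P84 hippocampus, Lhfpl3 had 1 VPA array apart from the others of its group on the log2 scale. The scaled signals were 554, 563, 478 and 570 in VPA replicates 1 to 4, against 509, 600, 599 and 555 in the MC arrays. On the log2 scale the gap below the nearest VPA array was 0.838 of the group's range. On the unlogged signals the share was smaller and did not reach the limit for flagging. Chance sets an array apart to that limit in about 1 of 20 groups.

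The VPA effect in the E18.5 hippocampus was set against that in the E14.5 telencephalon. The difference passed the test (limma, adjusted p under 0.05) for 37 of the 99 named genes. Over all genes tested the share was 37.3%, so the named genes did not stand out, and some were named by this contrast. Tissue, age and time since the last dose (4 days against 3 h) differ together in this contrast and cannot be told apart. On the log2 scale, the effect was more positive at E18.5 for Taf9b (2.65), Kmt5b (2.24), Mcm3ap (1.82), Epc2 (1.71), Zfp532 (1.27), Clec2l (1.15), Clcn5 (1.09), Vldlr (1.03), Aqp4 (1.00), Zbtb20 (0.89), Fezf2 (0.86), Ldb2 (0.83), Pou3f1 (0.76), Rasgrf2 (0.56), Ifitm3 (0.50), Cdc20 (0.49), Glul (0.45), Mt2 (0.43), Tfrc (0.42), Scn2a (0.40) and Apoe (0.37). It was more negative at E18.5 for Tmem159 (-2.92), Klf9 (-2.25), Hspa1a (-2.11), Rasd2 (-2.01), H1f2 (-1.73), Cdkn1a (-1.42), Sdf2l1 (-1.20), Lef1 (-1.11), Alas2 (-1.07), Fzd7 (-0.91), Id1 (-0.76), Jag1 (-0.70), B2m (-0.69), Homer1 (-0.42), Fgfr2 (-0.35) and Vim (-0.29).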

How the results depend on the processing

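The count of 0 genes called between VPA and MC hippocampus was 0 to 3 when each array was left out: 1 (Tfrc) without VPA replicate 1, 2 (Ldb2 and a clone) without MC replicate 2 and 3 (Apoe, Clcn5 and Rian) without MC replicate 3. It was 1 with quantile normalization (Atp1b1), 2 with no filter, 1 on male-pattern arrays only (Zic1; the lone VPA array was assumed to vary like the other groups), and 0 with the sex pattern (780 at an unadjusted p under 0.05) or the choroid plexus level (1184) as a covariate. On the values as deposited it was 43, 38 higher and 5 lower, with the median of all genes shifted to 0.15. The hippocampal effect minus the forebrain effect gave 40 calls on the values as deposited, 1 with the replicate block and 0 to 1 with an array left out. VPA against VPM gave 1 with quantile normalization, 40 as deposited, 2 with no filter and 0 to 3 with an array left out. The E18.5 effect minus the E14.5 effect gave 1438 as deposited and 4064 to 4212 with an array left out, against 4411. With the replicate number as a block, VPA against MC had 0 called and 1606 genes at an unadjusted p under 0.05; same-numbered VPA and MC arrays correlated at 0.14, -0.04 and 0.16 in their deviations, and same-numbered hippocampal and forebrain arrays at 0.07 to 0.25. As 1 VPA and MC pair was not above 0.1, the numbers were not taken as pairs; whether they follow a processing set is not given, and replicate 3 had the lowest deposited trimmed mean in all 6 E18.5 groups. The sign turned for Kmt5b (0.12), Mcm3ap (0.077), Zfp532 (0.13) and Lrp8 (0.031) on values as deposited, for Jag1 (0.041) and Lrp8 (0.028) with the most variable probe set, and for Zfp532 (0.055) on male-pattern arrays. Cdkn1a was at -0.064 with the choroid plexus covariate and ranged from -0.12 to 0.15 with an array left out, and Zfp532 from -0.066 to 0.017. Of 1849 values of the 99 named genes, 1824 kept direction and side of the threshold. As no gene was called between VPA and MC hippocampus, keeping that side was likely beforehand. Over the alternatives the list median ranged from -0.46 to -0.07 for intermediate progenitors and from -0.30 to -0.04 for mitosis. It ranged from 0.18 to 0.47 for astrocytes and from 0.20 to 0.52 for the oligodendrocyte lineage. Medians that reached both sides of 0 included radial glia (-0.21 to 0.01), Wnt pathway (-0.19 to 0.06) and ribosomal protein genes (-0.19 to 0.02). The choroid plexus median ranged from 0.05 to 2.38. The causes were not tested.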
